A study of Mus musculus with 6 samples.

Results

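The Dlx family holds the 6 mouse homeobox genes Dlx1 to Dlx6, and all 6 were measured among the 19938 genes that the array annotation named. A probe set, the group of probes that reads a single transcript cluster, was taken for a gene where its annotation gave exactly 1 gene symbol, and each Dlx gene had 1 such probe set. The family was chosen by its values on these same 6 arrays, in the same contrast of knockout and wild-type, so the Dlx differences below are a description and carry no test. The arrays held total RNA of mouse embryonic fibroblasts (MEFs), cultured connective tissue cells derived from embryos. There were 3 arrays of wild-type MEFs (H2AX WT) and 3 of H2AX knockout MEFs (H2AX KO). H2AX is the histone variant that is phosphorylated around DNA breaks, and the mutant cells lack its gene. Both genotypes came from the same laboratory, grew in the same medium with serum and received no treatment. The sources used here do not give the embryonic age, the strain or the mutant allele.

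Dlx proteins are homeodomain transcription factors, related to Distal-less of the fruit fly, that bind AT-rich DNA. The genes lie on their chromosomes as pairs whose members face each other and share enhancers: Dlx1 with Dlx2 on chromosome 2, Dlx4 with Dlx3 on chromosome 11 and Dlx6 with Dlx5 on chromosome 6. In the embryo they pattern the jaw within the pharyngeal arches under endothelin and BMP signals, help form limb ectoderm and bone, and direct the birth and migration of inhibitory interneurons in the forebrain.

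The targeted gene H2ax checked the labels. Its log2 values were 8.96, 9.18 and 9.00 on the wild-type arrays and 7.69, 7.77 and 7.67 on the knockout arrays, a fall of 1.34 (SE 0.07, adjusted p = 5.8e-07). The sources used here do not say whether its probes fall inside the deletion. The Y-linked gene Eif2s3y, a translation factor subunit, averaged 8.09 ± 0.05 (SD, n = 3) in wild-type and 4.05 ± 0.16 (SD, n = 3) in knockout MEFs (adjusted p = 9.7e-10). Genotype therefore cannot be told apart from the sex or Y content of the cells, or from their origin. Across all genes, limma called 18.4% higher and 15.0% lower in the knockout MEFs at an adjusted p under 0.05. The sources name no separate cultures or embryos for the 3 arrays of a genotype, so a p-value here reflects only how far these arrays differ from each other, which may be technical. Array medians lay between 6.06 and 6.12.

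The promoters of Dlx1 and Dlx2 are shown because these are the Dlx genes with a promoter entry in the RefSeq tables used here (GRCm38.p6), and the arrays of both separated by genotype. Each window starts 250 bases before the transcription start and ends 50 bases after it, read along the gene's own strand. Dlx1 lies on the plus strand at chr2:71529195-71529494, and Dlx2 on the minus strand at chr2:71546705-71547004. Capitals mark every match, on either strand, to the motifs named after the sequences.
Dlx1: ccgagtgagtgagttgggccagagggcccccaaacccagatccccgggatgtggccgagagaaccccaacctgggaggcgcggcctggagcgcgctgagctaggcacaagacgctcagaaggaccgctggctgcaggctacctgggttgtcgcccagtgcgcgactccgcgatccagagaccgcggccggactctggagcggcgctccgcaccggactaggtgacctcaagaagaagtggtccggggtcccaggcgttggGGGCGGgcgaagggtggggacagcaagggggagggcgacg
Dlx2: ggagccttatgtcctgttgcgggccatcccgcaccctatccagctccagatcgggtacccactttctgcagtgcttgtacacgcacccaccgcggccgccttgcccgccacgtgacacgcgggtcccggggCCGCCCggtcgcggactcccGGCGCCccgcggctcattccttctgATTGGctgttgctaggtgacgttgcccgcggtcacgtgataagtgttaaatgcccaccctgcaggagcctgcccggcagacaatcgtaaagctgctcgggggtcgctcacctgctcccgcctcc
Both windows were rich in CpG, the dinucleotide that clusters in the promoters of many developmental genes. The Dlx1 window held 27 CpG at a GC content of 69.3%, and the Dlx2 window held 29 at 66.3%, against a median of 7 CpG and 52.7% GC over 32851 promoter windows of the same length. The share of windows with fewer CpG was 84.5% for Dlx1 and 87.1% for Dlx2. The GC box GGGCGG, read by Sp1-type factors, was found once in each window and in 35.7% of all windows. Dlx2 also held 1 CCAAT box, present in 37.4% of all windows, and 1 GGCGCC, present in 11.9%. The homeodomain motifs TAATTA and TAATTG had no match in either window, and 5.29% and 8.00% of all windows hold them. TATAAA, in 13.6% of windows, and the AP-2 motif GCCNNNGGC, in 16.6%, had no match either. The motifs were chosen after the array values had been seen, and a match marks letters in a window, not a bound site.

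Dlx5 and Dlx6 differed most between the genotypes. Dlx5 (probe set 10543058), which takes part in lower jaw identity and in bone formation, had log2 values of 5.23, 5.67 and 5.65 in wild-type MEFs and 9.17, 9.08 and 9.33 in knockout MEFs. Every knockout array lay above every wild-type array, with a gap of 3.40 between the groups, whereas the wild-type arrays spanned 0.45. The means were 5.52 ± 0.25 and 9.19 ± 0.13 (SD, n = 3 each), a difference of 3.68 (SE 0.16) or 12.8-fold.

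Dlx6 (probe set 10536353), its neighbour and close functional partner in the lower jaw, had values of 5.36, 5.49 and 5.24 in wild-type MEFs and 7.78, 7.60 and 7.81 in knockout MEFs. The groups again did not overlap, and the gap was 2.11. Its means were 5.36 ± 0.12 and 7.73 ± 0.12 (SD, n = 3 each), a difference of 2.37 (SE 0.10) or 5.16-fold. In the order of all genes from the largest positive difference down, Dlx5 stood at rank 18 and Dlx6 at rank 68 of 19938. The wild-type values of both genes lay below the array medians. Array values of weakly expressed genes flatten towards a floor, so a fold against such a level is understated, and the deposited values hold no detection calls.

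Dlx1 and Dlx2 were measured at higher values in wild-type MEFs and differed less. Dlx2 (probe set 10483626), which acts with Dlx1 in forebrain interneurons and the upper jaw, read 7.46, 7.55 and 7.67 in wild-type MEFs. It read 8.82, 9.02 and 8.79 in knockout MEFs. No knockout array came within 1.12 of a wild-type array. The means were 7.56 ± 0.11 and 8.88 ± 0.12 (SD, n = 3 each), which differed by 1.32 (SE 0.09) or 2.49-fold.

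Dlx1 (probe set 10472809) read 8.08, 8.26 and 8.14 in wild-type MEFs and 8.84, 8.70 and 8.75 in knockout MEFs. These groups did not overlap either, but the gap was the narrowest of the 4 genes whose groups were apart, at 0.44. The means were 8.16 ± 0.09 and 8.76 ± 0.07 (SD, n = 3 each), which differed by 0.60 (SE 0.07) or 1.52-fold, short of the 2-fold threshold of the study's methods. Their ranks among all genes were 259 for Dlx2 and 1085 for Dlx1. The antisense gene Dlx1as overlaps Dlx1 and has a probe set of its own, with 5.20, 5.13 and 5.18 in wild-type and 5.60, 5.37 and 5.56 in knockout MEFs. Its groups did not overlap and differed by 0.34 (SE 0.07, adjusted p = 0.0055).

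Dlx3 and Dlx4 lay below the array medians on all 6 arrays. Dlx3 (probe set 10380501), which serves hair, teeth, bone and placenta, read 5.69, 5.83 and 5.71 in wild-type and 5.72, 5.87 and 5.76 in knockout MEFs. Its groups interleaved, and the difference of 0.04 was smaller than its SE of 0.06. Dlx4 (probe set 10390147) read 5.65, 5.86 and 5.76 in wild-type and 5.87, 5.93 and 5.81 in knockout MEFs. Its groups overlapped only through knockout replicate 3, with a difference of 0.11 (SE 0.07). Differences of this size were not resolved by 3 arrays a genotype.

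**Figure D1:**
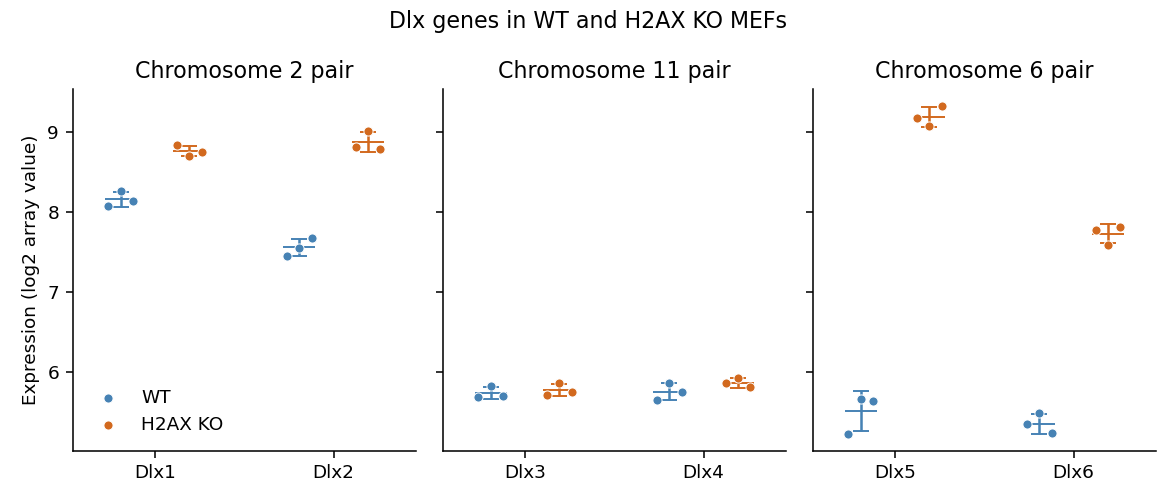
The log2 array value (vertical axis) of each Dlx gene is plotted by linked pair for 3 wild-type and 3 H2AX knockout arrays; points are arrays, and bars are the mean ± SD. Knockout points of Dlx1, Dlx2, Dlx5 and Dlx6 sit wholly above the wild-type points, with gaps from 0.44 for Dlx1 to 3.40 for Dlx5, while those of Dlx3 and Dlx4 interleave.

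The difference was uneven within the pairs. Dlx2 exceeded Dlx1 by 0.71 in its log2 difference, and the difference of Dlx6 minus that of Dlx5 was -1.31, while Dlx4 and Dlx3 were 0.08 apart. The mean difference was 3.02 for Dlx5 and Dlx6, 0.96 for Dlx1 and Dlx2 and 0.07 for Dlx3 and Dlx4. Of the 6 Dlx genes, 4 had all knockout arrays above all wild-type arrays, against 25.3% of all genes. The 4 genes were also among the 18.4% of genes called higher, and 3 of them, Dlx2, Dlx5 and Dlx6, passed both the call and the 2-fold threshold, as did 2.12% of all genes in that direction. Since the family was chosen on this contrast, nothing is read from these shares. A filter at the median of all genes' means over the 6 arrays kept Dlx1, Dlx2, Dlx5 and Dlx6 and removed Dlx3 and Dlx4. Those means take in both genotypes, and Dlx5 and Dlx6 passed only through their knockout values. Their wild-type means of 5.52 and 5.36 lay below those of Dlx3 (5.745) and Dlx4 (5.76), so the filter adds nothing to the differences above. In bulk RNA, a different number of cells expressing a Dlx gene and a different amount of RNA per cell cannot be told apart.

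With single arrays left out, the differences ranged from 3.53 to 3.75 for Dlx5, 2.31 to 2.43 for Dlx6, 1.25 to 1.37 for Dlx2 and 0.56 to 0.65 for Dlx1. Dlx4 ranged from 0.06 to 0.16. Dlx3 ranged from -0.01 to 0.08, and was below 0 without knockout replicate 2.

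For each Dlx gene, the genes with the most similar profile were found by the root mean square difference over the 6 arrays, after every gene was centred on its own mean. A profile of 6 arrays in 2 genotypes is largely set by the size of the genotype difference, and no Dlx gene was among the 3 closest of another. Nearest to Dlx5 were Zfp521 (0.10 log2 units), a zinc finger protein of early osteoblasts, Aqp1 (0.13), a water channel, and AW551984 (0.15). Nearest to Dlx6 were Mid2 (0.06), Adh7 (0.08) and Vldlr (0.08), a lipoprotein receptor. Dlx2 was closest to Hspb6 (0.05), Slc6a9 (0.05) and Dysf (0.06). The values were smaller for the others, at 0.02 to 0.03 for 2810002D19Rik, Ldlrad4 and Wdr43 beside Dlx1, 0.01 to 0.02 for Il17rd, Cyp2c70 and Ciita beside Dlx3, and 0.02 for Ptcd1, Nme6 and Dcdc2c beside Dlx4.

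Endothelin and BMP signals act upstream of Dlx genes in the arches and the limb. Of 22 measured genes of these routes, 6 rose, 7 fell and 9 did not pass the test, with a median difference of 0.09 against 0.02 over all genes. The limma counts of this list and of those that follow stand beside 18.4% of all genes higher and 15.0% lower. Without limma's variance moderation fewer genes were called in each direction, so those shares are no background for counts given without it. Where a listed gene lay below the array medians in both genotypes, the floor described above limits what its difference can show. Bmp4, the BMP ligand of the distal arch, had log2 values of 6.54, 6.50 and 6.18 in wild-type and 10.82, 10.64 and 10.80 in knockout MEFs. Its groups were far apart, and the rise of 4.35 (SE 0.10, adjusted p = 1.5e-09) was the largest in the list. Mef2c, a transcription factor that acts downstream of endothelin signalling in the arch, read 5.95, 5.95 and 5.97 against 8.60, 8.55 and 8.54, a rise of 2.61 (SE 0.06, adjusted p = 1.3e-09). Edn1, the endothelin ligand itself, read 5.13, 5.31 and 5.13 against 7.44, 6.73 and 7.09, with a wider spread among the knockout arrays. It rose by 1.90 (SE 0.15, adjusted p = 7.2e-06), and Ece1, the protease that activates it, by 0.74 (adjusted p = 2.1e-05). Both were singled out after their values were seen. Other genes of the endothelin route did not rise: Gna11 differed by -0.48 (adjusted p = 0.00028) and Gnaq by 0.12 (adjusted p = 0.24). The receptor gene Ednra was not measured.

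The list also held strong falls. Bmp2, a close relative of Bmp4, read 7.78, 8.15 and 7.69 in wild-type and 4.63, 4.36 and 4.84 in knockout MEFs, and fell by 3.26 on the log2 scale (SE 0.14, adjusted p = 9.6e-08). Grem1, a secreted BMP antagonist, read 11.63, 11.57 and 11.55 against 9.24, 9.18 and 9.23 and fell by 2.37 (SE 0.06, adjusted p = 3e-09). The calls of Bmp7, Bmpr2 and Plcb3, all lower, were lost when any 1 of 4, 5 and 4 arrays, in that order, was left out, with adjusted p of up to 0.19, 0.14 and 0.10.

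Transcription factors that work with or after Dlx genes in arch and limb mesenchyme moved in both directions. Of 19 measured, 9 rose, 4 fell and 6 did not pass, with a median of 0.20. Six2, a homeobox factor of facial and kidney mesenchyme, read 5.51, 5.68 and 5.47 in wild-type and 8.85, 9.13 and 8.86 in knockout MEFs, a rise of 3.39 (SE 0.09, adjusted p = 4.6e-09). Alx1, which shapes the frontonasal skeleton, read 6.42, 6.48 and 6.09 against 9.45, 9.38 and 9.47 and rose by 3.11 (SE 0.10, adjusted p = 1.3e-08). The hindlimb and jaw factor Pitx1 and the tooth and stomach factor Barx1 rose by 1.97 (SE 0.16, adjusted p = 9.6e-06) and 1.92 (SE 0.11, adjusted p = 5.9e-07), the former named after its value was seen. The falls were led by Meis1, a homeobox cofactor of Hox and Pbx proteins, at -1.17 (SE 0.08, adjusted p = 2.7e-06) and Lhx6, a LIM-homeobox factor of oral mesenchyme and interneurons, at -0.95 (SE 0.09, adjusted p = 2.3e-05). Hand2, the factor that lies downstream of Dlx5 and Dlx6 in the lower jaw, was also looked up after the values were seen. It read 5.49, 5.45 and 5.62 against 5.71, 5.66 and 5.79, a difference of 0.20 (SE 0.07, adjusted p = 0.057) that did not pass, although the groups did not overlap.

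**Figure D2:**
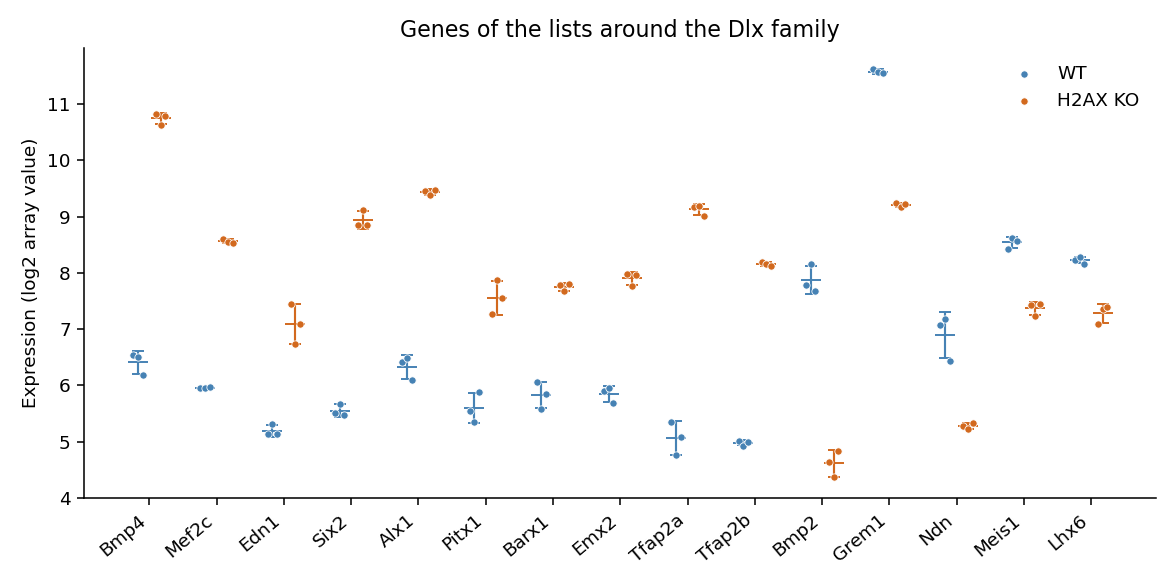
The log2 array value (vertical axis) of 15 genes from the lists around the Dlx family is shown for 3 wild-type and 3 H2AX knockout arrays, with a point per array and bars for the mean ± SD. Bmp4, Mef2c, Edn1, Six2, Alx1, Pitx1, Barx1, Emx2, Tfap2a and Tfap2b sit higher in the knockout arrays, whereas Bmp2, Grem1, Ndn, Meis1 and Lhx6 sit lower.

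Of 14 measured genes of bone and cartilage that depend on or follow Dlx3, Dlx5 and Dlx6, 5 rose, 1 fell and 8 did not pass, and the median was 0.05. Pth1r, the parathyroid hormone receptor, rose by 0.96 (SE 0.09, adjusted p = 1.9e-05) and Col1a1, the main collagen of bone and of fibroblasts, by 0.60 (SE 0.07, adjusted p = 8.4e-05). Phex, an endopeptidase of osteoblasts and osteocytes, fell by 1.00 (SE 0.10, adjusted p = 3.1e-05). Sp7, the osteoblast master factor, read 5.30, 4.83 and 4.98 in wild-type and 4.74, 4.94 and 5.00 in knockout MEFs, and Ibsp, bone sialoprotein, differed by 0.06 (SE 0.08, adjusted p = 0.61). Acan and Col10a1, cartilage matrix genes, were called higher at 0.26 and 0.25, and lost the call when any 1 of 3 and 2 arrays was left out (adjusted p of up to 0.072 and 0.12).

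In the forebrain interneuron list, 5 of 23 measured genes rose, 6 fell and 12 did not pass, with a median of 0.01. Maf, a transcription factor of interneurons and many other cells, rose by 2.41 (SE 0.11, adjusted p = 1.1e-07) and Pak3, a kinase repressed by Dlx proteins in the forebrain, by 1.34 (SE 0.08, adjusted p = 1.4e-06). Isl1, a LIM-homeobox factor of striatal and motor neurons, fell by 2.56 (SE 0.12, adjusted p = 1.5e-07) and Nrp1, the semaphorin and VEGF receptor, by 1.97 (SE 0.09, adjusted p = 1.1e-07). Gad1, which encodes the enzyme that makes GABA, read 5.69, 5.73 and 5.82 in wild-type and 5.74, 5.78 and 5.66 in knockout MEFs, and the groups overlapped. Its partner Gad2 was called lower, at -0.34 (SE 0.09, adjusted p = 0.015), a call that was lost without wild-type replicate 2 or knockout replicate 3 (adjusted p of up to 0.064).

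Among ectoderm and placenta genes, 5 of 20 measured rose, 3 fell and 12 did not pass, with a median of 0.08. Tfap2a, the AP-2 factor of epidermis and neural crest, read 5.36, 4.75 and 5.08 in wild-type and 9.18, 9.19 and 9.02 in knockout MEFs. It rose by 4.07 (SE 0.13, adjusted p = 1.5e-08). Klf4, a zinc finger factor of the skin barrier, rose by 1.20 (SE 0.07, adjusted p = 5.1e-07). Syna, a fusion protein of the placenta, fell by 0.89 (SE 0.07, adjusted p = 6.5e-06), and Pgf, the placental growth factor, by 0.63 (SE 0.06, adjusted p = 3.3e-05). The keratins of this list, Krt5, Krt14, Krt1 and Krt10, differed by 0.03 to 0.15 and did not pass.

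Of 28 other measured homeobox genes of the NK-like class, the wider class to which Dlx belongs, 3 rose, 1 fell and 24 did not pass, with a median of 0.02. Emx2, a factor of dorsal forebrain and urogenital tissue, rose from 5.89, 5.95 and 5.68 to 7.98, 7.77 and 7.96, by 2.07 (SE 0.09, adjusted p = 8.9e-08), and Barx1 followed with the value given above. Hmx2 rose by 0.47 (SE 0.08, adjusted p = 0.0017). Msx1, an antagonist of Dlx proteins and the gene of this class that fell, differed by -0.19 (SE 0.06, adjusted p = 0.026), and its call was lost when any 1 of 5 arrays, all but knockout replicate 2, was left out (adjusted p of up to 0.10).

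**Figure D3:**
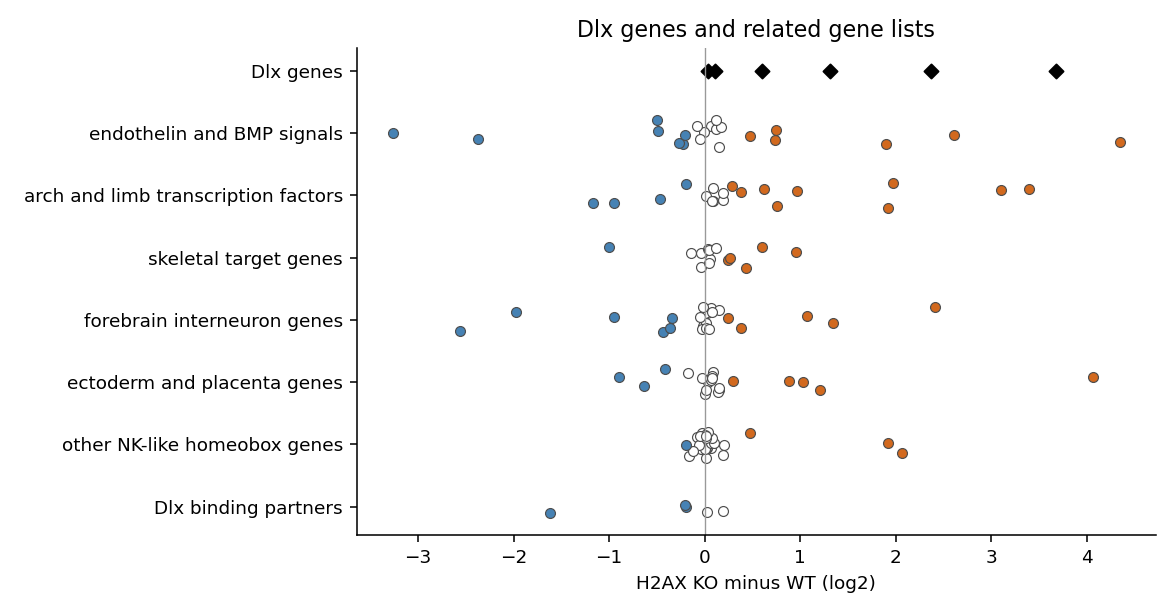
Each point is the H2AX KO minus WT difference in log2 value (horizontal axis) of a measured gene, with the Dlx genes as diamonds on top and the lists of related genes in rows. The spread of the signal and transcription factor rows runs from -3.26 for Bmp2 to 4.35 for Bmp4, and 4 of 28 NK-like homeobox genes passed the test.

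Proteins that bind Dlx proteins were given by 5 genes, of which none rose and 3 fell by limma, with a median of -0.19; at an unadjusted p under 0.05 there were 1 higher and 3 lower, and without variance moderation 0 higher and 3 lower. Ndn, the melanoma antigen family protein necdin, read 7.07, 7.18 and 6.43 in wild-type and 5.28, 5.22 and 5.33 in knockout MEFs. It fell by 1.61 (SE 0.16, adjusted p = 4.2e-05), with wild-type replicate 3 well below the other wild-type arrays. Maged1, of the same protein family, differed by -0.20 (SE 0.06, adjusted p = 0.024), and lost its call when any 1 of 4 arrays was left out (adjusted p of up to 0.082). With Msx1 at -0.19, the list's count fell to between 1 and 2 in these repeats, and was 1 without wild-type replicate 1, wild-type replicate 2 or knockout replicate 3. Msx2 differed by 0.19 (SE 0.08, adjusted p = 0.094) and Grip1, a scaffold protein, by 0.03 (SE 0.06, adjusted p = 0.79), and neither passed.

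The labelled cell type was checked against markers. Fibroblast markers were measured for 12 of 12 genes, with a list mean of 10.16 to 10.25 on the wild-type arrays and 10.90 to 10.95 on the knockout arrays. Of these 6 were higher, 4 lower and 2 did not pass, with a median difference of 0.28, so the list mean does not describe every marker. Vim, the mesenchymal filament protein, read 13.23, 13.20 and 13.22 against 13.14, 13.12 and 13.14. Postn, a matrix protein, rose by 4.18 (SE 0.08, adjusted p = 6.9e-10) and Thy1, a surface glycoprotein, by 4.03 (SE 0.07, adjusted p = 2.6e-10), while Dcn, decorin, fell by 2.15 (SE 0.11, adjusted p = 2.5e-07), and these markers were singled out after their values were seen.

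Markers of other cells that express Dlx genes moved in part. For neural crest, 3 of 8 markers rose, 1 fell and 4 did not pass, with a median difference of only 0.09. The list mean was 7.09 to 7.18 in wild-type and 8.04 to 8.12 in knockout MEFs. It rests largely on Tfap2a, which rose by 4.07, and Tfap2b, so it does not describe the list as a whole. Tfap2b, which with Tfap2a marks crest and facial mesenchyme, read 5.02, 4.93 and 4.99 against 8.19, 8.16 and 8.12 and was named after its value was seen. It rose by 3.17 (SE 0.06, adjusted p = 6.3e-10), while Sox10 and Foxd3, defining genes of early crest, differed by -0.09 and 0.06 and did not pass. Both Sox10 and Foxd3 lay below the array medians in both genotypes, so they were not shown to be unchanged. Of the markers above the array medians in both genotypes, Twist1 rose by 0.625 (adjusted p = 0.00052) and Ets1 fell by 0.43 (adjusted p = 0.002). Sox9 and Snai2 differed by -0.04 and 0.11 and did not pass. For neural markers, 3 of 9 rose, 2 fell and 4 did not pass, with list means of 5.99 to 6.02 and 6.15 to 6.21. The median was -0.02, and without moderation 2 were higher and 1 lower. Rises were led by the cytoskeletal genes Map2 at 1.73 (SE 0.10, adjusted p = 7e-07) and Tubb3 at 0.83 (SE 0.09, adjusted p = 6.9e-05). Sox2 rose by 0.23 (adjusted p = 0.048). The falls were Nes, at -0.64 (SE 0.08, adjusted p = 0.00022), and Gad2, with the value given above. The neuronal genes Rbfox3 and Snap25 differed by 0.14 and -0.21 without passing. For bone and cartilage cells, 2 of 7 rose and none fell by limma (at an unadjusted p under 0.05, 2 and 0; without moderation, 0 and 0), with list means of 5.88 to 5.97 and 5.93 to 6.06. For keratinocytes, 0 of 7 passed the limma test (1 higher and 0 lower at an unadjusted p under 0.05, and 0 without moderation), with list means of 5.54 to 5.57 and 5.58 to 5.71. Whether a difference in cell makeup had a part in the Dlx values was not tested.

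The HoxA, HoxB and HoxD clusters lie on the chromosomes of the Dlx pairs and offer a comparison with other homeobox genes there. Falls were not confined to those chromosomes. In HoxC, which lies on another chromosome, 6 of 9 measured genes fell, led by Hoxc8 at -5.34 (SE 0.11, adjusted p = 8e-10). Of 28 measured HoxA, HoxB and HoxD genes none rose and 14 fell by limma, with a median of -0.32 (0 higher and 15 lower at an unadjusted p under 0.05, and 0 and 14 without moderation). HoxA, on the chromosome of Dlx5 and Dlx6, had 7 of 10 genes lower, led by Hoxa5, 4.01-fold lower (adjusted p = 3.2e-06), and Hoxa6 at -1.58 (SE 0.07, adjusted p = 1.1e-07). HoxB, on that of Dlx3 and Dlx4, had 7 of 9 lower. HoxD, on that of Dlx1 and Dlx2, had 0 of 9 called by limma, with none at an unadjusted p under 0.05 and none without moderation. Its list means were 5.04 to 5.12 on the wild-type and 5.04 to 5.13 on the knockout arrays. These lay below the array medians of 6.06 to 6.12, where a fall could hardly be seen.

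Of the 30 nearest measured neighbours, 5 on each side of each Dlx pair, 12 rose, 6 fell and 12 did not pass, beside 18.4% higher and 15.0% lower over all genes. Without variance moderation the calls numbered 7 higher and 4 lower, and calls over all genes were fewer too. Beside Dlx5 and Dlx6, 6 of 10 rose and 2 fell, with a median of 0.29, and without moderation 3 were higher and 1 lower. The genes directly flanking this pair were not among the rises. Sem1, a proteasome and BRCA2-binding protein, differed by 0.11 (adjusted p = 0.30), and Sdhaf3, an assembly factor of succinate dehydrogenase, by -0.38 (adjusted p = 0.023), a call that was lost when any 1 of the 3 wild-type arrays was left out (adjusted p of up to 0.071). Further out, Pdk4, a kinase that inhibits pyruvate dehydrogenase, rose by 3.49 (SE 0.09, adjusted p = 2.8e-09), Asb4 by 1.80 (adjusted p = 3.1e-06), Asns by 0.62 (adjusted p = 0.00044), Tac1 by 0.59 (adjusted p = 0.0027) and Slc25a13 by 0.38 (adjusted p = 0.0081). The calls of Tac1, Slc25a13, Sdhaf3 and Dync1i1 were those lost without moderation, at adjusted p of 0.065, 0.077, 0.15 and 0.08. Dync1i1, a dynein chain whose locus lies near limb enhancers of Dlx5 and Dlx6, rose by 0.20 (adjusted p = 0.046), a call lost when any 1 of 5 arrays was left out (adjusted p of up to 0.15). C1galt1, a glycosyltransferase, fell by 1.62 (adjusted p = 5.9e-07).

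Beside Dlx1 and Dlx2, 2 of 10 neighbours rose and 3 fell, with a median of -0.10 (1 and 3 without moderation, where Metap1d lost its call). The flanking gene Metap1d rose by 0.24 (adjusted p = 0.035), a call lost when any 1 of 4 arrays was left out (adjusted p of up to 0.11), and Platr26 on the other side differed by -0.14 (adjusted p = 0.35). Itga6, the laminin receptor subunit, fell by 1.96 (SE 0.07, adjusted p = 3.5e-08), Map3k20 fell by 0.65 (adjusted p = 0.0004) and Dync1i2 fell by 0.54 (adjusted p = 0.0012), while Cdca7 rose by 0.46 (adjusted p = 0.00049). Beside Dlx3 and Dlx4, where the Dlx genes themselves overlapped between genotypes, 4 of 10 neighbours rose and 1 fell, with a median of 0.21 (3 and 0 without moderation, where Samd14 and Slc35b1 lost their calls). Pdk2, another pyruvate dehydrogenase kinase, rose by 1.41 (adjusted p = 2.8e-07), Samd14 by 0.63 (adjusted p = 0.0038), the flanking gene Itga3 by 0.44 (adjusted p = 0.0006) and Ppp1r9b by 0.28 (adjusted p = 0.0049). Slc35b1 fell by 0.38 (adjusted p = 0.012), and Tac4, the gene on the other flank, differed by 0.01 (adjusted p = 0.94).

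**Figure D4:**
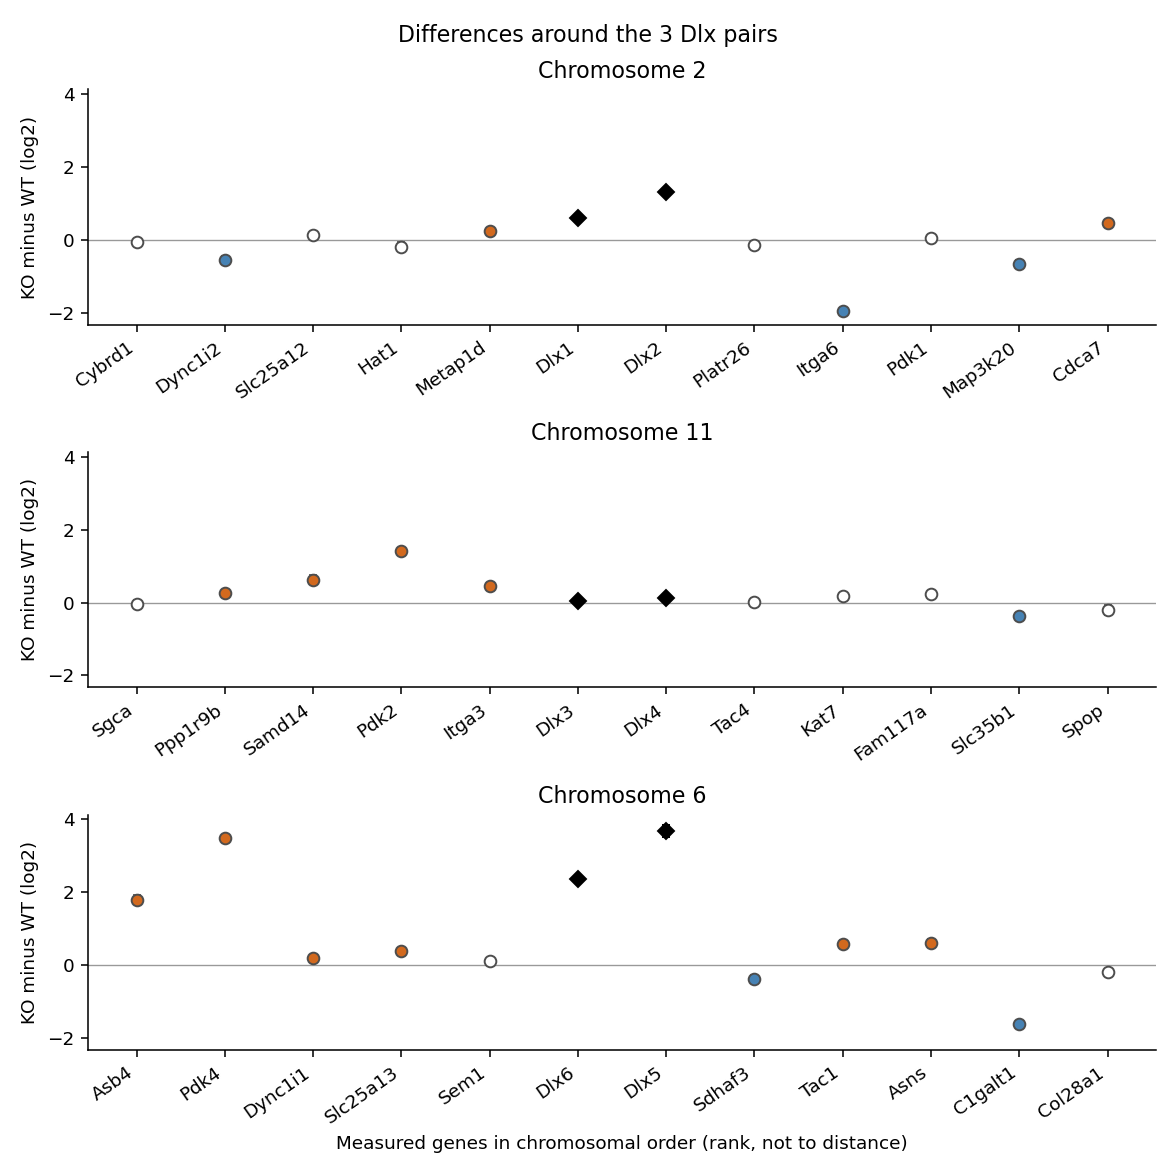
The H2AX KO minus WT difference in log2 value (vertical axis) is shown in chromosomal order for each Dlx pair (diamonds) and 5 measured genes on each side (circles), with bars for the SE, mostly hidden by the symbols; filled orange and blue circles passed the test as higher and lower, and open circles did not. Dlx5 and Dlx6 stand above the genes that flank them directly, at 0.11 for Sem1 and -0.38 for Sdhaf3, and Pdk4 reaches 3.49 further out.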

How the data were processed

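RNA of 3 wild-type and 3 H2AX knockout MEF samples was hybridised to Affymetrix mouse gene arrays. The deposited values, 1 per probe set and array, were made by the authors on a log2 scale, with Affymetrix Expression Console and Partek 6.6 named in the submitters' processing notes; the summary and normalization method is not given in the sources used here. The methods name Mouse Gene 2.0 ST arrays, whereas the probe sets match the platform annotation supplied with the deposited values, which may be of another version. Of 35556 probe sets, 21789 had exactly 1 symbol, and 19938 genes remained after the probe set with the highest mean was kept for each gene. Symbols were updated through the RefSeq gene table, with 21698 probe sets matched. No value was dropped or imputed.

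Genotypes were compared by limma 3.58.1 in R 4.3.3 (lmFit and eBayes, two-sided), with Benjamini-Hochberg adjustment over all 19938 genes and a threshold of 0.05; the methods' 2-fold threshold was a second rule. The code was tested on simulated data. SEs of Dlx differences come from the group SDs, and all others from limma. The number of arrays limits the precision. The Dlx members and the lists were chosen with earlier results of these data known. Named were the 6 Dlx genes, H2ax, the 2 largest called rises and falls of each list (all genes of lists of up to 6), the flanking and the called neighbours, and the 3 most similar genes; every other gene named was chosen after its values were seen. Alternatives were a replicate block, each array left out, a one-way ANOVA without moderation, a trended robust prior, quantile normalization, median centring, keeping only genes above the median of all genes' means, averaging the probe sets of a gene, and a 1.5-fold threshold.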

Additional observations from a re-analysis of the deposited data

How the results depend on the processing

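Of 86 called genes followed, which were H2ax and the called neighbours and genes of the lists other than HoxC and the cell type markers, none reversed, and 18 lost their call under at least 1 alternative, 16 of them in the one-way ANOVA without moderation. That ANOVA called 11 of 30 neighbours in place of 18. Over all genes it also called fewer than the 6666 genes of limma, so the loss was not particular to the neighbours. Keeping only genes above the median of all genes' means left fewer genes to test. It called 2 of 4 skeletal, 7 of 8 forebrain, 5 of 6 ectoderm and placenta and 8 of 9 Hox genes tested. Only 1 binding partner was left to test, and it was called, in place of 3 of 5. The called share was larger than in the main test in each of these lists and over all genes. A 1.5-fold threshold gave 2374 called genes in place of 1056. With a replicate block, 1 binding partner was called. Deviations from the genotype means correlated at -0.29, -0.24 and 0.08 for same-numbered arrays, and at -0.165 to 0.32 for the others. Deviations within a genotype depend on each other, so these values cannot decide whether the numbers pair the arrays. With single arrays left out, called genes numbered 5339 to 6826 over all genes, 1047 to 1084 past 2-fold, 10 to 12 signals, 12 to 14 transcription factors, 4 to 6 skeletal, 9 to 11 forebrain, 7 to 8 ectoderm and placenta, 3 to 5 NK-like and 14 to 15 Hox genes, 1 to 2 binding partners and 15 to 19 neighbours. The 3 arrays a genotype and values near the array's floor limit what can be seen of Dlx3 and Dlx4. The same holds for listed genes below the array medians in both genotypes. Among them were Hand2, Sp7, Ibsp, Acan, Col10a1, Gad1, Gad2, Krt5, Krt14, Krt1, Sox10, Foxd3, Rbfox3 and Snap25.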
